A study of Drosophila melanogaster with 12 samples.

Results

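The genes described are those that changed in adult *Drosophila melanogaster* males overexpressing *bmm* (*brummer*) relative to control males. The overexpression males were *da-GAL4>UAS-bmm*, in which the *daughterless* driver (*da-GAL4*) switches on a *UAS-bmm* transgene throughout the body, and the control males carried the driver alone (*da-GAL4/+*). Both parental lines had been backcrossed to the same *white* mutant strain, and males carrying the *UAS-bmm* insertion without a driver were not sequenced, so an effect of the insertion and an effect of overexpression cannot be told apart. Flies of both groups were fed SY10/10 food, and their age at collection is not given in the sources used here. Each of the 3 libraries per group held mRNA of 20 whole males, 6 of the 12 libraries of the series, the other 6 being the same genotypes in females. Of 17807 gene symbols counted, 13632 passed the filter on low counts in males and were tested. Because male libraries can hold RNA of eggs or ovaries, the 744 tested genes whose mean level in females was at least 1 CPM (the count scaled to library size, as deposited, with no correction for gene length) and at least 5 times that in males, both genotypes pooled, were treated apart and are called female-high. The other 12888 genes carry the main description.

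The *bmm* gene encodes the fly homologue of adipose triglyceride lipase, the enzyme that takes the first fatty acid off stored triglyceride at the surface of lipid droplets, chiefly in the fat body. Perilipins coat the droplets and control the access of lipases, diacylglycerol acyltransferases refill them, and the fatty acids released are burnt by β-oxidation in mitochondria or re-esterified onto a glycerol backbone. In whole flies, RNA of the gut, fat body, muscle, nervous system and reproductive organs is measured together, so a lower level from fewer cells of a type and a lower level per cell cannot be told apart.

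The level of *bmm*, in which reads of the transgene and of the gene itself were not separated, was measured at 10619.9, 12055 and 11048 CPM in *bmm* overexpression males, against 474, 234 and 192 CPM in control males. The groups did not overlap and differed 37.5-fold in their means (log2 fold change 5.21 ± 0.35, exact-test adjusted p = 3.11e-42). An exact two-sided permutation test of these CPM values gave p = 0.1, the smallest that 3 against 3 libraries can give. Total counts lay between 27756412 and 31554377 in *bmm* overexpression males and between 24472531 and 34799635 in control males, and a detection limit of 3 counts corresponded to 0.0798 to 0.112 CPM. No pair of libraries of a group was as alike as sampling noise would make it. Female RNA was read from 26 yolk, vitelline membrane and chorion genes, as the median of their level over the mean level in females. It was 0.192%, 0.132% and 0.148% in *bmm* overexpression males, against 5.22%, 1.26% and 0.653% in control males, so all 3 controls held more, and control replicate 1 the most. Read against *bmm* overexpression females alone, the shares of the 3 control libraries were 5.59%, 1.33% and 0.668%, at which RNA of such females would account for 268, 63.5 and 32 CPM of *bmm*, and 206, 171 and 160 CPM remained without it. Read against control females alone they were 4.96%, 1.18% and 0.629%, which would account for 6.87, 1.64 and 0.872 CPM. Which genotype the female RNA came from was not tested.

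Among genes that were not female-high, 33 rose and 48 fell in *bmm* overexpression males at an adjusted p under 0.05 and a change of more than 2-fold (a log2 fold change beyond 1 in either direction). These were 0.256% and 0.372% of the 12888 genes. Over all tested genes, 205 passed both thresholds (1.5%), and the 171 that fell (1.25%) included 123 of the 744 female-high genes (16.5%). In 32 of the 33 risen genes and all 48 fallen genes, the libraries of the groups did not overlap, which held for 12.9% and 9.9% of all tested genes in these directions. By edgeR's quasi-likelihood test, which also allows for uncertainty in the estimated spread of each gene, 21 of the 33 rises and 25 of the 48 falls also passed both thresholds. Without control replicate 1, the library with the most female RNA, 31 genes rose and 65 fell, new calls included. They held 29 of the 33 rises and 42 of the 48 falls. Subtracting the estimated female RNA gave 33 and 46, with 31 and 44 of the first calls kept. In 44 of the 48 fallen genes the estimated female RNA made up less than 10% of the fall, and in 0 of them more than 50%. The limits on female level and on fold change hold this part low beforehand, so these counts are not a test of where the falls came from. Large changes were commonest among genes of low level: below a mean of 1 CPM 1.96% of the genes passed both thresholds, between 1 and 10 CPM 1%, between 10 and 100 CPM 0.289% and above 100 CPM 0.36%. Protein-coding genes made up 28 of the rises and 36 of the falls (0.56% of those tested), and non-coding RNAs 5 and 11 (1.22%).

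**Figure D1:**
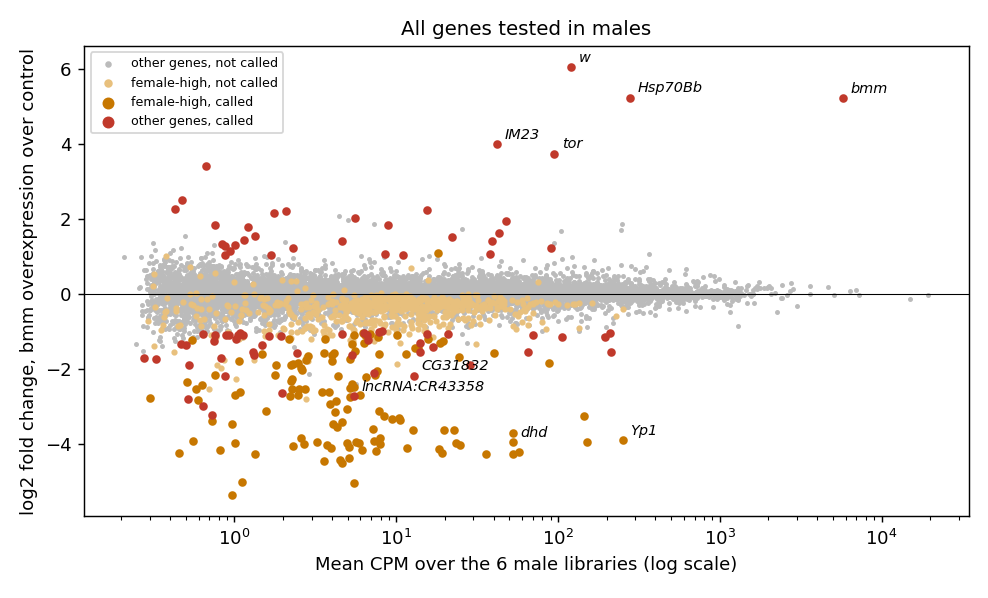
Log2 fold change (bmm overexpression over control males) of the 13632 tested genes against their mean level over the 6 male libraries in CPM, on a log axis. Genes past both thresholds are drawn in strong colour and female-high genes in a colour of their own; *w*, *Hsp70Bb*, *bmm*, *IM23* and *tor* lie farthest up among genes above 10 CPM in bmm overexpression males, of which *IM23* was high in 1 library only, and 123 of the 124 called female-high genes lie below 0.

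By the adjusted p alone, 260 genes that were not female-high rose (2.02%) and 175 fell (1.36%). Over all 13632 genes the shares were 1.92% and 2.38%, and these are the background for the counts within gene groups given below, in which "rose" and "fell" mean an adjusted p under 0.05 by edgeR's exact test. The 587 genes so called depended on the libraries: 346 were called without *bmm* overexpression replicate 1, 310 without replicate 2, 336 without replicate 3, and 253 by the quasi-likelihood test. The median log2 fold change was -0.012 over all tested genes and -0.0038 over those not female-high. Values after ± are standard errors of the log2 fold change, back-calculated from the quasi-likelihood fit. They are its absolute log2 fold change over the square root of its F statistic.

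The largest rises beside *bmm* were those of *white* and of a heat-shock gene. *w*, which encodes an ABC transporter for eye pigment precursors and is non-functional in *white* mutant strains, had 238, 241 and 237 CPM in *bmm* overexpression males, against 5.35, 3.17 and 2.20 CPM in control males (log2 fold change 6.03 ± 0.27, exact-test adjusted p = 2.38e-79). The overexpression libraries were nearly equal, and each lay far above all controls. *Hsp70Bb*, a copy of the inducible heat-shock chaperone Hsp70, had 491, 581 and 555 CPM in *bmm* overexpression males, against 23.8, 14.9 and 4.40 CPM in control males (log2 fold change 5.22 ± 0.52, exact-test adjusted p = 3.40e-17). Its level amounted to 4.63%, 4.82% and 5.03% of that of *bmm* in the overexpression libraries, against 5.02%, 6.36% and 2.29% in controls, and *w* to 2.24%, 2.00% and 2.14% of *bmm*, against 1.13%, 1.35% and 1.14% in controls. UAS transgenes commonly carry a mini-*white* marker and an *Hsp70* minimal promoter. The part of such vector sequence in the counts of *w* and *Hsp70Bb* was not tested. *Hsp70Ba*, a near-identical copy whose counts are uncertain because reads shared between copies cannot be placed, had 6.79, 7.53 and 7.09 CPM in *bmm* overexpression males, against 0.904, 3.87 and 0.284 CPM in control males and did not pass the test (log2 fold change 2.08 ± 0.66, exact-test adjusted p = 0.0806). Without control replicate 2, which held the highest control level, it did (log2 fold change 3.50, exact-test adjusted p = 4.64e-18).

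**Figure D2:**
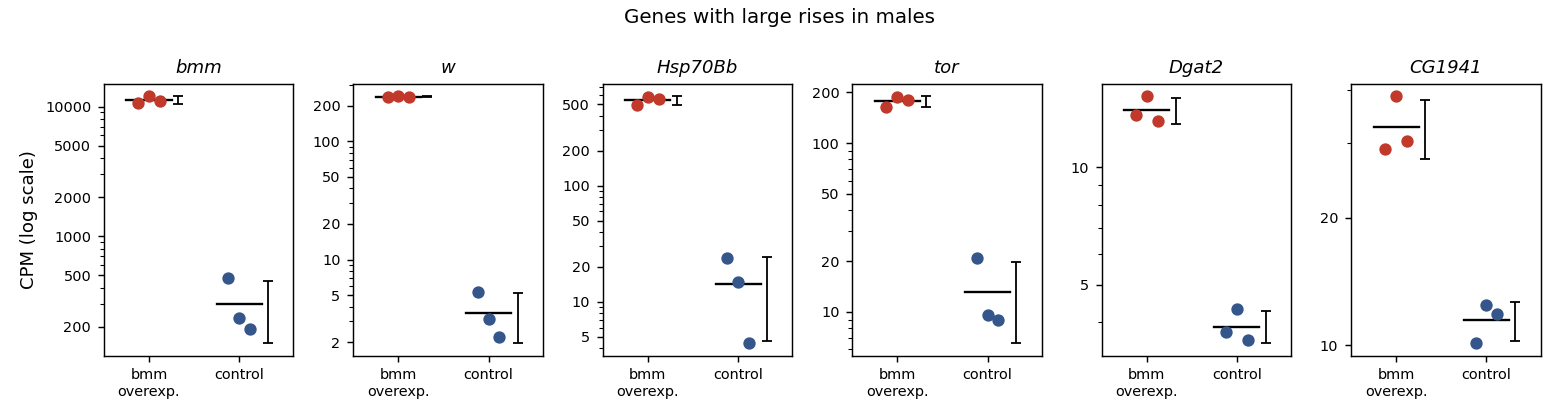
Level of 6 risen genes in each male library in CPM on a log axis, with bmm overexpression males on the left of each panel and control males on the right; the line is the mean and the bar the SD of 3 libraries. In every panel the 3 bmm overexpression libraries lie above all 3 controls, from *w* (237 to 241 against 2.20 to 5.35 CPM) to *Dgat2* (13.2 to 15.2 against 3.62 to 4.32 CPM).

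A run of 4 neighbours on chromosome arm 2R rose together. Positions are those of the BDGP6.54 annotation, matched by gene symbol. *tor* (chr2R:7705183-7709184), the receptor tyrosine kinase Torso that patterns the ends of the embryo and triggers moulting hormone release in the larva, had 163, 188 and 180.4 CPM in *bmm* overexpression males, against 20.8, 9.61 and 9.0 CPM in control males (log2 fold change 3.73 ± 0.31, exact-test adjusted p = 2.98e-26). *CG34216* (chr2R:7703506-7705095), 88 bp to one side of it, had 24.1, 27.4 and 25.8 CPM in *bmm* overexpression males, against 6.04, 4.88 and 5.28 CPM in control males (log2 fold change 2.23 ± 0.10, exact-test adjusted p = 4.73e-57). On the other side lay *CG1941* (chr2R:7709873-7711981, 689 bp away), with 29.1, 38.8 and 30.3 CPM in *bmm* overexpression males, against 10.1, 12.4 and 11.9 CPM in control males (log2 fold change 1.5 ± 0.12, exact-test adjusted p = 9.96e-21). *Dgat2* (chr2R:7712578-7714182), 597 bp further on, had 13.6, 15.2 and 13.2 CPM in *bmm* overexpression males, against 3.78, 4.32 and 3.62 CPM in control males (log2 fold change 1.83 ± 0.11, exact-test adjusted p = 1.02e-27). *Dgat2* and *CG1941* belong to the diacylglycerol acyltransferase 2 family, which makes triglyceride. None of the 4 genes overlapped between the groups, which the rule that named *tor*, *CG34216* and *Dgat2* required. All 4 passed the quasi-likelihood test (adjusted p = 0.00208, 1.60e-04, 0.00208 and 7.25e-04). The genes just beyond them did not pass: *Coq9* and *CG30496* on the side of *CG34216* had log2 fold changes of 0.11 and 0.07, and *CG1946*, another member of the acyltransferase family, and *Gdap2* on the side of *Dgat2* had 0.31 and 0.10. Of the 20 tested genes within 50 kb, *tor* included, 1 more rose, the long gene *CG46385* (log2 fold change 0.40, exact-test adjusted p = 8.05e-04). The position of the *UAS-bmm* insertion is not given in the sources used here, and its part in this cluster was not tested.

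Chromosome arm 2L held a larger share of the strongly changed genes than the other arms. Of 2504 tested genes on 2L that were not female-high, 8 rose and 24 fell past both thresholds (1.28%), against 10 and 5 of 2599 on 2R (0.577%), 7 and 8 of 2502 on 3L (0.6%), 5 and 7 of 3171 on 3R (0.378%) and 3 and 3 of 1941 on X (0.309%). On chromosome 4, 0 of 99 genes passed, and on Y 0 of 19. Within 2L the called genes lay mostly between 11 and 21 Mb, where 6 rose and 19 fell among 973 tested (2.57%), against 2 and 5 of 1410 between 0 and 11 Mb (0.496%). This window was chosen after the positions were seen, and a share of parental chromosome that differs between the groups was not tested. By the adjusted p alone, the counts on 2L were 67 higher and 60 lower. Besides the *tor* cluster, 5 more pairs of consecutive called genes lay within 50 kb of each other: *CG18557* with *CG3117*, *lncRNA:CR45456* with *lncRNA:CR45457*, *lncRNA:CR45447* with *lncRNA:CR45461*, *CG31832* with *CG33679* and *GstD5* with *GstD6* all fell.

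**Figure D3:**
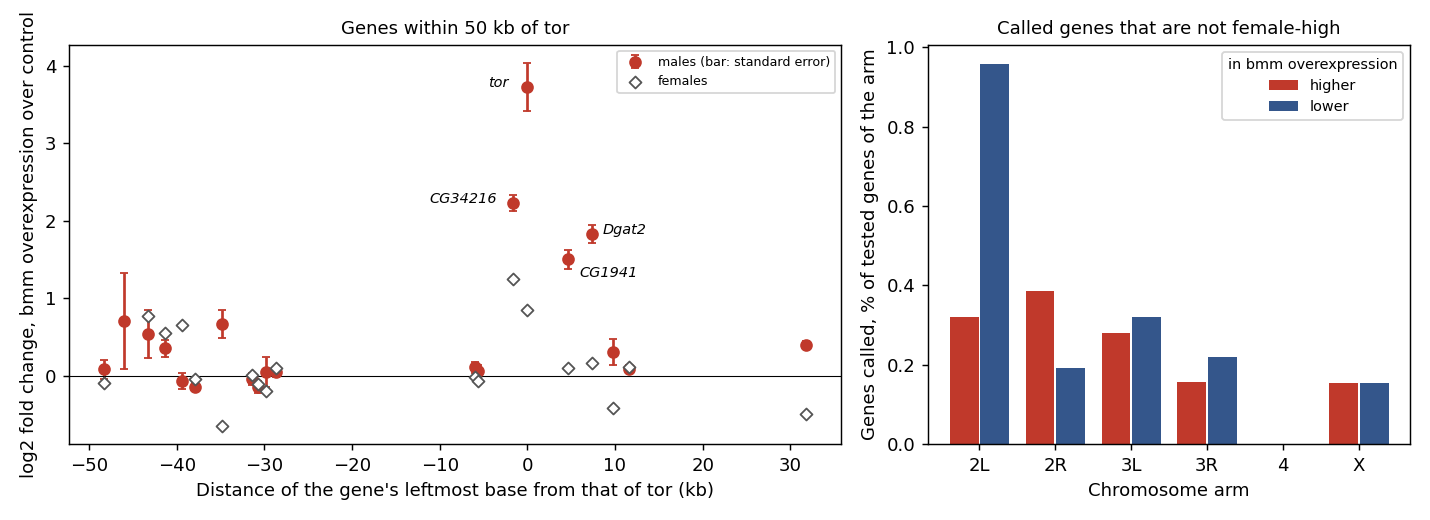
Left, log2 fold change of the 20 tested genes within 50 kb of *tor* by distance from its start, males with standard errors and females beside them; *tor*, *CG34216*, *Dgat2* and *CG1941* stand apart in males (1.5 to 3.73). Right, percent of tested genes that were not female-high and passed both thresholds on each chromosome arm, with separate bars for genes higher and lower in bmm overexpression males; 2L has the most, through its 24 fallen genes.

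In a list of lipases and perilipins drawn up for the lipid droplet, more genes rose than fell. Of the 12 tested, 4 rose, among them the overexpressed gene *bmm* itself, and none fell, with a median log2 fold change of 0.26. Where the proteins of *Lip4* and *CG5966* act was not measured. *Lip4*, a lipase, had 80.5, 96.1 and 90.7 CPM in *bmm* overexpression males, against 54.9, 52.8 and 57.5 CPM in control males (log2 fold change 0.68 ± 0.07, exact-test adjusted p = 4.13e-09). *CG5966*, a predicted triglyceride lipase, had 121, 165 and 95.1 CPM in *bmm* overexpression males, against 57.3, 50.5 and 54.8 CPM in control males (log2 fold change 1.21 ± 0.17, exact-test adjusted p = 4.54e-08). Both were higher in every overexpression library than in any control. *Lsd-1*, a perilipin that regulates lipolysis at the droplet surface, had 558, 582 and 627 CPM in *bmm* overexpression males, against 413, 293 and 425 CPM in control males (log2 fold change 0.63 ± 0.13, exact-test adjusted p = 0.00268), again without overlap, but the quasi-likelihood test gave 0.0601. *Lsd-2*, the other perilipin, had a log2 fold change of 0.32 (exact-test adjusted p = 0.0598) and *Hsl*, hormone-sensitive lipase, 0.02 (0.994), so neither passed. The count of 4 was 4 or 5 without any single library.

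Of 12 genes of triglyceride synthesis, 3 rose and none fell, with a median of 0.20, and the 3 were all acyltransferases of the last step. Beside the neighbours *Dgat2* and *CG1941*, *mdy* (*midway*), the fly diacylglycerol acyltransferase 1, had 59.0, 71.0 and 58.5 CPM in *bmm* overexpression males, against 35.4, 35.6 and 44.7 CPM in control males (log2 fold change 0.69 ± 0.11, exact-test adjusted p = 8.25e-06). The groups did not overlap, and the same 3 genes passed the quasi-likelihood test. The rises stayed at 3 without each library in turn, and 1 gene fell without *bmm* overexpression replicate 3 or control replicate 2. In fatty acid synthesis and desaturation, 1 of 18 genes rose and 1 fell (median 0.045). The riser was *CG33110*, predicted to elongate fatty acids, with 133, 139 and 133 CPM in *bmm* overexpression males, against 102, 94.4 and 106 CPM in control males (log2 fold change 0.41 ± 0.06, exact-test adjusted p = 9.02e-04), and the faller was the female-high elongase *eloF*, whose libraries overlapped. The fall of *eloF* lost its call without any 1 *bmm* overexpression library or control replicate 1 (exact-test adjusted p up to 0.198), and the rises numbered 2 without control replicate 1 or 3.

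**Figure D4:**
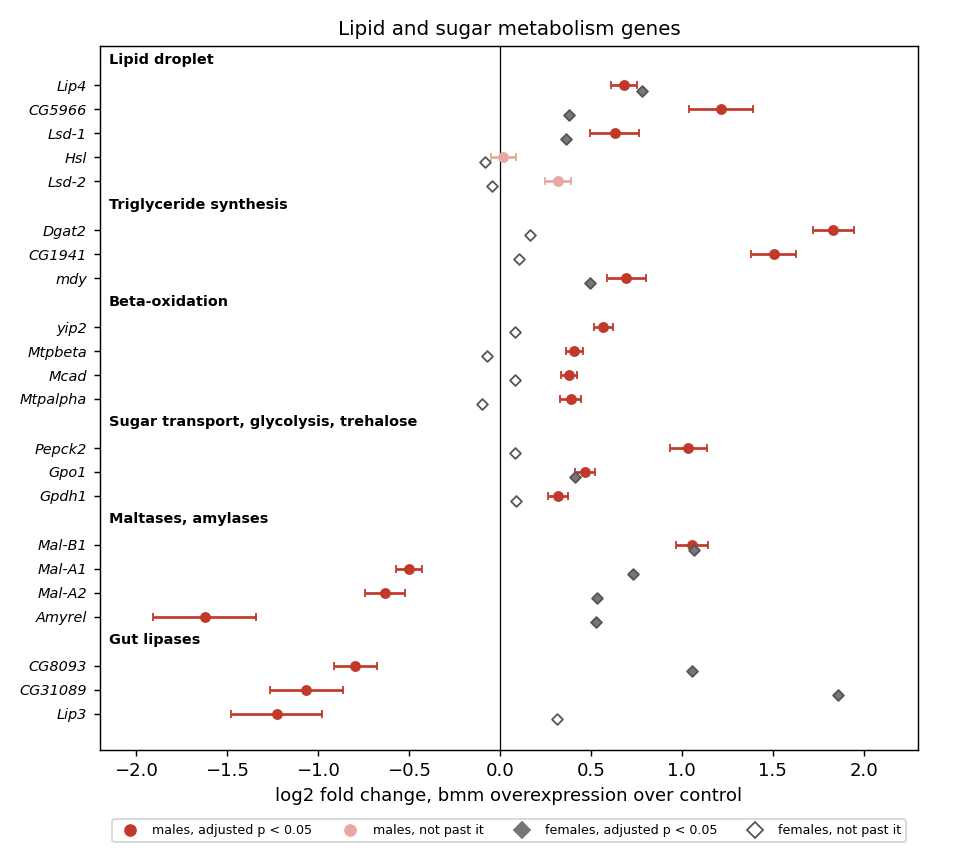
Log2 fold change of genes of lipid and sugar metabolism in males with standard errors, and in females as diamonds, filled where the adjusted p is under 0.05. In males *Lip4*, *CG5966*, *Lsd-1*, the 3 acyltransferases, the 4 β-oxidation genes, *Pepck2*, *Gpo1*, *Gpdh1* and *Mal-B1* are past the test above 0, and *Mal-A1*, *Mal-A2*, *Amyrel*, *CG8093*, *CG31089* and *Lip3* below it.

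Enzymes of fatty acid β-oxidation were modestly higher. Of 27 tested genes 8 rose and none fell, with a median log2 fold change of 0.13 and a range of -0.34 to 0.57, and the same number passed the quasi-likelihood test. *yip2*, a mitochondrial ketoacyl-CoA thiolase that carries out the last step of each cycle, had 376, 395 and 392.3 CPM in *bmm* overexpression males, against 266, 245 and 267 CPM in control males (log2 fold change 0.57 ± 0.05, exact-test adjusted p = 6.25e-07). *Mtpbeta* and *Mtpalpha* encode the subunits of the mitochondrial trifunctional protein, which oxidises long chains. *Mtpbeta* had 255, 258 and 252 CPM in *bmm* overexpression males, against 194, 185 and 193 CPM in control males (log2 fold change 0.41 ± 0.05, exact-test adjusted p = 5.39e-04). *Mtpalpha* had 251, 275 and 250.1 CPM in *bmm* overexpression males, against 205, 190.2 and 193 CPM in control males (log2 fold change 0.39 ± 0.06, exact-test adjusted p = 0.00368). *Mcad*, the medium-chain acyl-CoA dehydrogenase, had 410.0, 437 and 421 CPM in *bmm* overexpression males, against 317, 323 and 328 CPM in control males (log2 fold change 0.38 ± 0.04, exact-test adjusted p = 0.00157). In none of the 4 did the groups overlap. The other risers were *CG4598* (0.33), the carnitine carrier gene *colt* (0.30), the long-chain acyl-CoA synthetase gene *Acsl* (0.31) and *CG7461*, a very-long-chain acyl-CoA dehydrogenase (0.29, all log2 fold changes). The summed level of the 27 genes was 4822 to 5108 CPM in *bmm* overexpression males, against 4065 to 4434 CPM in control males. The count depended on single libraries: it was 2 without *bmm* overexpression replicate 2, 3 without control replicate 2, 4 without *bmm* overexpression replicate 3, 5 without *bmm* overexpression replicate 1 or control replicate 3, and 7 without control replicate 1. *Mcad* lost its call without *bmm* overexpression replicate 2 (exact-test adjusted p = 0.0668), and *Mtpalpha* without that library (0.105) or control replicate 2 (0.0607).

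Of 32 tested genes of sugar transport, glycolysis and trehalose metabolism, 3 rose and none fell, with a median log2 fold change of -0.053 and 19 genes under 0. *Pepck2*, a phosphoenolpyruvate carboxykinase, the enzyme that opens glucose and glyceride-glycerol formation from mitochondrial carbon, had 14.8, 15.8 and 13.7 CPM in *bmm* overexpression males, against 7.15, 6.48 and 7.76 CPM in control males (log2 fold change 1.04 ± 0.10, exact-test adjusted p = 4.74e-11). *Gpo1*, the mitochondrial glycerol-3-phosphate dehydrogenase, had 258, 265 and 249 CPM in *bmm* overexpression males, against 187, 175 and 192 CPM in control males (log2 fold change 0.47 ± 0.06, exact-test adjusted p = 9.24e-05). *Gpdh1*, its cytosolic partner in the glycerol phosphate shuttle, had 774, 782 and 764 CPM in *bmm* overexpression males, against 581, 600.3 and 663 CPM in control males (log2 fold change 0.32 ± 0.05, exact-test adjusted p = 0.0232). All 3 were higher in every overexpression library. *Gpdh1* lost its call on leaving out any 1 library except control replicate 3, the highest adjusted p being 0.206 without *bmm* overexpression replicate 2. *Nc73EF*, the 2-oxoglutarate dehydrogenase of the citric acid cycle and one of the 10 most abundant changed genes, had 1069, 1049 and 1014 CPM in *bmm* overexpression males, against 825, 798 and 823 CPM in control males (log2 fold change 0.34 ± 0.04, exact-test adjusted p = 0.00513), a call that ended without *bmm* overexpression replicate 1 (0.115), replicate 2 (0.0917) or control replicate 2 (0.078). Beside these enzymes, 0 of 69 nuclear genes of oxidative phosphorylation and 0 of 13 mitochondrially encoded genes changed by edgeR's exact test (medians -0.024 and 0.058, lowest adjusted p 0.0982 and 0.0585). At an unadjusted p under 0.05 they numbered 2 nuclear genes, both lower, and 2 mitochondrial genes, 1 in each direction. The quasi-likelihood test and limma-trend also called 0 in each list, and DESeq2 called 1 and 2. Without control replicate 1, 1 nuclear gene fell, and without control replicate 2, 1 mitochondrial gene did.

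Maltases and amylases fell in 3 of 14 tested genes and rose in 1, and the other 10 did not pass the test (median log2 fold change -0.36). *Mal-A1*, an abundant gut maltase that splits dietary disaccharides, had 877, 1048 and 953 CPM in *bmm* overexpression males, against 1335, 1277 and 1427 CPM in control males (log2 fold change -0.50 ± 0.07, exact-test adjusted p = 1.86e-04). *Mal-A2*, a related maltase, had 58.4, 77.3 and 70.5 CPM in *bmm* overexpression males, against 108, 94.4 and 114 CPM in control males (log2 fold change -0.63 ± 0.11, exact-test adjusted p = 1.33e-04). *Amyrel*, an amylase-related gene, had 2.66, 2.27 and 2.93 CPM in *bmm* overexpression males, against 8.62, 4.80 and 10.6 CPM in control males (log2 fold change -1.62 ± 0.28, exact-test adjusted p = 2.55e-05). Against this direction, *Mal-B1* had 50.6, 53.6 and 49.97 CPM in *bmm* overexpression males, against 21.3, 25.3 and 27.2 CPM in control males (log2 fold change 1.06 ± 0.09, exact-test adjusted p = 2.56e-18). None of the 4 overlapped between groups, and all 4 passed the quasi-likelihood test. The summed level of the list was 3246 to 3606 CPM in *bmm* overexpression males, against 3822 to 4751 CPM in control males. The count of falls was 3 or 4 without any single library except control replicate 2, without which it was 8.

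Secreted and gut lipases fell more often than they rose. Of 35 tested, 10 fell and 1 rose, with a median of -0.12, and 3 of the falls passed the quasi-likelihood test. *CG8093*, a gut lipase, had 34.8, 42.5 and 45.0 CPM in *bmm* overexpression males, against 70.5, 61.1 and 79.0 CPM in control males (log2 fold change -0.80 ± 0.12, exact-test adjusted p = 1.16e-06). *CG31089*, another predicted lipase, had 2.76, 2.66 and 3.64 CPM in *bmm* overexpression males, against 7.18, 4.95 and 6.59 CPM in control males (log2 fold change -1.06 ± 0.20, exact-test adjusted p = 6.23e-04). *Lip3* had 4.31, 4.23 and 3.61 CPM in *bmm* overexpression males, against 11.52, 5.85 and 10.8 CPM in control males (log2 fold change -1.23 ± 0.25, exact-test adjusted p = 6.68e-04), and the quasi-likelihood test gave 0.0552. All 3 were lower in every overexpression library than in any control. The summed level of the list was 3477 to 3895 CPM in *bmm* overexpression males, against 3137 to 3890 CPM in control males. *CG17097*, its most abundant member, had a mean of 1987 CPM in *bmm* overexpression males, against 1778 CPM in control males, and did not pass the test (0.737). Its mean in females was 0 CPM, and as it is a large part of the summed level, that sum need not follow lipases of the gut. The riser was *CG10357* (1.21 on the log2 scale). The 10 falls became 4 without *bmm* overexpression replicate 1 or replicate 2, 5 without control replicate 3 and 6 without control replicate 1.

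Of 34 tested genes in a list drawn up for midgut proteases, 12 fell and 3 rose. Whether each listed gene, *CG31832* and *CG15254* included, encodes a serine protease was not checked. Since 13 of the 34 were female-high, the falls among the other genes number 6, and 4 of the 12 passed the quasi-likelihood test. *CG31832* had 3.83, 4.75 and 5.43 CPM in *bmm* overexpression males, against 17.3, 21.7 and 24.6 CPM in control males (log2 fold change -2.19 ± 0.16, exact-test adjusted p = 1.77e-28), and *CG15254* had 0.673, 0.393 and 0.585 CPM in *bmm* overexpression males, against 3.38, 3.54 and 3.30 CPM in control males (log2 fold change -2.64 ± 0.22, exact-test adjusted p = 6.23e-20). In both genes all overexpression libraries lay below all controls, which the rule for the 12 largest falls required. *Ser8* (-0.66), *lambdaTry* (-0.43), *kappaTry* (-0.43) and *Ser6* (-0.39) fell by less on the log2 scale. Members of the Jonah family of digestive proteases, which are female-high, moved in opposite directions: *Jon25Biii*, *Jon99Ciii*, *Jon99Fii*, *Jon99Cii* and *Jon99Fi* fell (log2 fold changes -0.87, -0.77, -0.82, -0.66 and -0.84), and *Jon25Bi* and *Jon25Bii* rose (1.08 and 0.68), the only female-high genes of all 744 that did. The falls numbered 8 without *bmm* overexpression replicate 1 and up to 14 without control replicate 3, and the rises 1 without *bmm* overexpression replicate 1 or control replicate 2. Close relatives in these families can share reads, which makes single members uncertain.

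Among proteins of the gut lining and other chitin-binding matrices, 4 of 19 tested genes rose and 1 fell (median 0.050). *Muc68D*, a mucin gene, had 713, 735 and 706 CPM in *bmm* overexpression males, against 515, 491 and 483 CPM in control males (log2 fold change 0.52 ± 0.05, exact-test adjusted p = 2.72e-06). *Mur18B*, a mucin-related gene among the most abundant changed genes, had 3050.2, 3032 and 3038 CPM in *bmm* overexpression males, against 2330.4, 2454 and 2610.1 CPM in control males (log2 fold change 0.29 ± 0.04, exact-test adjusted p = 0.0298), but the call was lost on leaving out any 1 library except control replicate 3 (adjusted p up to 0.227). *CG10725*, which has chitin-binding domains, had 2.05, 2.00 and 1.66 CPM in *bmm* overexpression males, against 0.718, 0.484 and 0.390 CPM in control males (log2 fold change 1.79 ± 0.27, exact-test adjusted p = 5.32e-07). The summed level of the list was 4089 to 4160 CPM in *bmm* overexpression males, against 3146 to 3393 CPM in control males, with no overlap. The 4 rises became 2 without *bmm* overexpression replicate 2 or 3.

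Detoxification families changed in single members. Of 81 tested cytochrome P450 genes 5 rose and 3 fell (median 0.053), and of 30 UDP-glycosyl transferases 4 rose and 1 fell (median -0.039). *Cyp4e3* had 71.8, 68.7 and 54.3 CPM in *bmm* overexpression males, against 18, 27.6 and 17.9 CPM in control males (log2 fold change 1.61 ± 0.18, exact-test adjusted p = 4.33e-14). *Cyp6a8* had 186, 193 and 149.9 CPM in *bmm* overexpression males, against 117, 118 and 125 CPM in control males (log2 fold change 0.55 ± 0.09, exact-test adjusted p = 4.37e-04). In neither did the groups overlap. *Ugt37D1* had 75.6, 84.0 and 78.4 CPM in *bmm* overexpression males, against 40.4, 40.0 and 46.8 CPM in control males (log2 fold change 0.89 ± 0.07, exact-test adjusted p = 2.83e-16), and *Ugt301D1* rose by less (0.57). *Ugt37C2* had 2.76, 3.30 and 2.57 CPM in *bmm* overexpression males, against 0.585, 0.707 and 0.638 CPM in control males (log2 fold change 2.15 ± 0.20, exact-test adjusted p = 5.85e-13), more than 4-fold higher in the means. *Ugt36E1* went the other way, with 30.8, 30.7 and 32.8 CPM in *bmm* overexpression males, against 59.5, 48.3 and 57.3 CPM in control males (log2 fold change -0.82 ± 0.09, exact-test adjusted p = 1.73e-10). Of 34 glutathione transferases none rose and 2 neighbours on 3R fell (median 0.069). *GstD5* had 15.3, 13.8 and 7.12 CPM in *bmm* overexpression males, against 26.7, 48.1 and 60.2 CPM in control males (log2 fold change -1.90 ± 0.34, exact-test adjusted p = 1.04e-05), and *GstD6*, 556 bp away, 0.370, 0.484 and 0.293 CPM in *bmm* overexpression males, against 0.745, 1.45 and 1.6 CPM in control males (log2 fold change -1.70 ± 0.36, exact-test adjusted p = 0.00143). Both were lower in every overexpression library, *GstD5* lowest in replicate 3. The 5 P450 rises became 3 without any *bmm* overexpression library or without control replicate 2, and the 3 P450 falls became 1 without any *bmm* overexpression library or without control replicate 3. With control replicate 3 left out 3 glutathione transferases rose, and with control replicate 1 left out 4 fell.

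Odorant-binding proteins, small carriers secreted by sensory organs and other tissues, rose in 5 of 37 tested genes and fell in 2 (median 0.19). *Obp99b* had 53.3, 56.0 and 60.8 CPM in *bmm* overexpression males, against 19.5, 20.1 and 24.6 CPM in control males (log2 fold change 1.40 ± 0.10, exact-test adjusted p = 6.19e-28). *Obp56d*, the most abundant of the changed members, had 714, 819 and 747 CPM in *bmm* overexpression males, against 475, 432 and 519 CPM in control males (log2 fold change 0.66 ± 0.08, exact-test adjusted p = 4.73e-07). Neither overlapped, and these 2 were the ones that passed the quasi-likelihood test. *Obp49a* rose (0.68) and *Obp44a* fell (-0.54) with weaker tests, *Obp49a* losing its call without *bmm* overexpression replicate 1 (exact-test adjusted p = 0.0768) and *Obp44a* without *bmm* overexpression replicate 2 (0.129), replicate 3 (0.0529) or control replicate 2 (0.0817). The rises numbered 2 without *bmm* overexpression replicate 1 and 3 without control replicate 2, and the falls 0 without *bmm* overexpression replicate 2 or 3.

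Further large rises came from genes that were not on these lists, whatever family they belong to. *phu* had 101, 76.0 and 49.0 CPM in *bmm* overexpression males, against 23.9, 10.1 and 24.5 CPM in control males (log2 fold change 1.93 ± 0.36, exact-test adjusted p = 2.62e-05). *CG10814* had 9.11, 7.44 and 10.3 CPM in *bmm* overexpression males, against 3.96, 0.968 and 1.6 CPM in control males (log2 fold change 2.01 ± 0.43, exact-test adjusted p = 9.76e-04), and *CG7017* had 2.76, 4.50 and 2.99 CPM in *bmm* overexpression males, against 0.426, 1.19 and 0.638 CPM in control males (log2 fold change 2.20 ± 0.36, exact-test adjusted p = 3.67e-06). All 3 were higher in every overexpression library, which the rule that named them required. *phu* ranged from 49.0 to 101 CPM among these libraries, and *CG10814* did not pass the quasi-likelihood test (0.0648). Each of the 12 largest rises above a mean of 1 CPM without overlap between the groups kept an adjusted p under 0.05 without each male library in turn.

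The largest falls were spread over long non-coding RNAs, enzymes and unstudied genes, many of them on 2L. *lncRNA:CR43358* had 1.51, 1.45 and 1.40 CPM in *bmm* overexpression males, against 11.4, 7.15 and 10.2 CPM in control males (log2 fold change -2.73 ± 0.21, exact-test adjusted p = 1.71e-23). *CG18557* had 3.73, 2.45 and 1.98 CPM in *bmm* overexpression males, against 8.27, 10.6 and 16.56 CPM in control males (log2 fold change -2.13 ± 0.31, exact-test adjusted p = 4.09e-08). *CG15263* had 36.2, 30.1 and 33.9 CPM in *bmm* overexpression males, against 105, 73.3 and 113 CPM in control males (log2 fold change -1.55 ± 0.16, exact-test adjusted p = 2.88e-16). In all 3 the groups did not overlap, which the rule that named them required. *AANATL3*, which belongs to the arylalkylamine N-acetyltransferase-like family, had 6.15, 7.32 and 7.97 CPM in *bmm* overexpression males, against 22.5, 20.3 and 20.0 CPM in control males (log2 fold change -1.56 ± 0.11, exact-test adjusted p = 2.72e-25), and was the 1 of 7 tested AANAT-like acyltransferases and acid sphingomyelinases that changed (median -0.21). Without control replicate 2, 3 of the 7 fell. *CG34227*, at a higher level, had 97.0, 132 and 92.8 CPM in *bmm* overexpression males, against 154, 397 and 399 CPM in control males (log2 fold change -1.57 ± 0.33, exact-test adjusted p = 2.76e-04), and the quasi-likelihood test gave 0.0601. *CG33679*, *CG31809* and *lncRNA:CR45456* fell by 1.63, 1.58 and 1.54 on the log2 scale from control levels between 1.46 and 4.61 CPM. The 12 largest falls above a mean of 1 CPM, also without overlap, likewise kept theirs without each male library in turn.

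Among the 10 most abundant genes that changed, all changes but that of *bmm* were under 2-fold. *Arc1*, which encodes a capsid-forming protein that carries RNA between neurons and muscle, had 1008, 872 and 881 CPM in *bmm* overexpression males, against 1220.3, 1743 and 2007 CPM in control males (log2 fold change -0.86 ± 0.16, exact-test adjusted p = 1.09e-04), lower in every overexpression library. *CG18628* had 1878, 1830.0 and 1917 CPM in *bmm* overexpression males, against 2483, 2383 and 3023 CPM in control males (log2 fold change -0.50 ± 0.08, exact-test adjusted p = 8.93e-04). *CG3168* had 1087, 1134 and 1145 CPM in *bmm* overexpression males, against 831, 848 and 879 CPM in control males (log2 fold change 0.38 ± 0.04, exact-test adjusted p = 9.02e-04). These 3 calls held without each library. *CG2233* fell (log2 fold change -0.32), and *CG34220* (0.32) and *CG18135* (0.46) rose. *CG2233* lost its call on leaving out any 1 library except control replicate 1 (exact-test adjusted p up to 0.328), *CG34220* likewise (up to 0.14), and *CG18135* without *bmm* overexpression replicate 1 (0.0758), replicate 2 (0.129) or control replicate 2 (0.0716).

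Stress-response and immune groups changed little. Of 16 tested inducible heat-shock genes, *Hsp70Bb* rose and the female-high *Hsp26* fell (log2 fold change -0.95, lost without any single *bmm* overexpression library, exact-test adjusted p up to 0.203), and the median was -0.074. Without control replicate 1, 4 heat-shock genes fell. Of 8 genes of the mitochondrial unfolded protein response and 15 chaperones of the endoplasmic reticulum 0 changed by edgeR's exact test (medians 0.078 and -0.011, lowest adjusted p 0.496 and 0.778), 0 had an unadjusted p under 0.05, and 0 were called by the quasi-likelihood test, DESeq2 or limma-trend. *Hsp60A*, a mitochondrial chaperonin, had 346, 323 and 314 CPM in *bmm* overexpression males, against 287, 304 and 304 CPM in control males (log2 fold change 0.12 ± 0.05, exact-test adjusted p = 0.717). *Trap1*, a mitochondrial Hsp90, had 121, 121 and 122 CPM in *bmm* overexpression males, against 108, 109.7 and 109 CPM in control males (log2 fold change 0.14 ± 0.04, exact-test adjusted p = 0.542). For both, every overexpression library lay above every control by a small margin. *Hsp22* was listed at 0 counts in all male libraries. So were *ND-MNLL*, *Prx5*, *cup* and *Pp1-Y1*, so a listed 0 need not mean that the gene was silent. Of 22 antioxidant genes, *Keap1* (0.32), the inhibitor of the oxidative stress regulator, and the glutathione peroxidase *PHGPx* (0.31) rose slightly, and the female-high *dhd* fell. Neither rise held without any one *bmm* overexpression library (adjusted p 0.0987 to 0.244), nor without control replicate 2 (0.0898 and 0.160).

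Of 34 tested antimicrobial peptide genes 1 rose, and it rested on 1 library. *IM23*, an immune-induced Bomanin, had 5.28, 7.07 and 225 CPM in *bmm* overexpression males, against 5.72, 4.13 and 5.07 CPM in control males. Only *bmm* overexpression replicate 3 was high, and without it the log2 fold change was 0.29 (exact-test adjusted p = 0.960) in place of 3.98 (0.0471). Without any 1 control library its call was lost too (0.140 to 0.249). Without *bmm* overexpression replicate 1, 4 antimicrobial peptide genes rose, and without replicate 2, 3 did. Their summed level was 2992 to 7363 CPM in *bmm* overexpression males, against 2507 to 5441 CPM in control males, with broad overlap. Of 17 peptidoglycan receptors and lysozymes 0 changed by edgeR's exact test (median -0.0090, lowest adjusted p 0.167), 2 had an unadjusted p under 0.05, 1 in each direction, and the quasi-likelihood test, DESeq2 and limma-trend called 0. Of 4 Turandot genes, humoral stress factors, 2 rose. *TotC* had 111, 138 and 169.7 CPM in *bmm* overexpression males, against 63.7, 55.4 and 98.4 CPM in control males (log2 fold change 0.93 ± 0.22, exact-test adjusted p = 0.00358). *TotA* had 259.6, 412 and 428 CPM in *bmm* overexpression males, against 222, 208 and 263 CPM in control males (log2 fold change 0.65 ± 0.18, exact-test adjusted p = 0.0253), with overlap. Without *bmm* overexpression replicate 3 neither passed (0.0622 and 0.225), and neither passed the quasi-likelihood test.

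Hormonal signals of energy state changed by small amounts. Of 22 tested insulin and adipokinetic hormone genes 4 rose and 1, the female-high *Ilp8*, fell (median 0.070). *AkhR*, the receptor for adipokinetic hormone, which mobilises stored fat, had 125, 129 and 138 CPM in *bmm* overexpression males, against 95.8, 90.2 and 103 CPM in control males (log2 fold change 0.43 ± 0.07, exact-test adjusted p = 0.00102), with no overlap and a call that held without each library. *ImpL2*, a secreted protein that binds insulin-like peptides, had 292, 311 and 311 CPM in *bmm* overexpression males, against 256, 224 and 231 CPM in control males (log2 fold change 0.35 ± 0.07, exact-test adjusted p = 0.0224). *sNPF*, a feeding neuropeptide, and *daw*, an activin-like ligand, rose by 0.31 and 0.49 on the log2 scale. The calls of *ImpL2*, *sNPF* and *daw* were each lost without at least 4 of the 6 libraries (adjusted p up to 0.202, 0.199 and 0.240), so 1 rise remained without *bmm* overexpression replicate 1 or 3, and 2 without *bmm* overexpression replicate 2 or control replicate 2 or 3. Of 15 storage and carrier proteins of the fat body 2 fell (median -0.014). *Lsp2*, a larval serum protein, had 119, 119.8 and 127 CPM in *bmm* overexpression males, against 244, 172 and 385 CPM in control males (log2 fold change -1.14 ± 0.25, exact-test adjusted p = 6.55e-04), all overexpression libraries below all controls, and the quasi-likelihood test gave 0.0625. *Lsp1alpha* fell (-1.01), but not without *bmm* overexpression replicate 1, 2 or 3 or control replicate 3 (adjusted p up to 0.307). Of 11 circadian clock genes 0 changed by edgeR's exact test (median 0.034, lowest adjusted p 0.253), 1 had an unadjusted p under 0.05, and the quasi-likelihood test, DESeq2 and limma-trend called 0.

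Male reproductive tissues differed little between the groups. Of 52 tested accessory gland and seminal fluid genes, *Acp33A* rose (0.43, exact-test adjusted p = 0.00902) and none fell, while 0 of 44 testis and sperm genes and 0 of 11 Y-linked fertility genes changed by edgeR's exact test (medians -0.047, -0.049 and 0.061). At an unadjusted p under 0.05, 3 testis genes were lower and 0 Y-linked genes differed, and the quasi-likelihood test, DESeq2 and limma-trend called 0 in both lists. All of these male lists were expressed in every library, at very different levels. Accessory gland genes summed to 16150 to 17850 CPM in *bmm* overexpression males, against 14910 to 18660 CPM in control males. Y-linked genes were low, with sums of 55.3 to 58.9 CPM, against 52.5 to 59.3 CPM. *Acp33A* lost its call without *bmm* overexpression replicate 1 (0.105), replicate 3 (0.0961) or control replicate 2 (0.0841). Without control replicate 1, 4 accessory gland genes rose, and without control replicate 2, 6 fell. Of 14 genes of dosage compensation and sex determination 0 changed by edgeR's exact test (lowest adjusted p 0.231), 1 had an unadjusted p under 0.05, and the quasi-likelihood test, DESeq2 and limma-trend called 0. Beside *w*, 1 of 18 eye pigment genes rose, *st*, the partner of the *white* transporter (log2 fold change 0.37, quasi-likelihood adjusted p = 0.0601), and *st* passed only with all libraries or without control replicate 3.

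Female-high genes had lower levels in *bmm* overexpression males almost throughout. Of the 744, 723 had a log2 fold change under 0, their median was -0.42, and 123 fell past both thresholds. All 3 yolk protein genes, 21 of 22 vitelline membrane and chorion genes and 15 of 31 ovarian germline genes fell by the adjusted p alone (medians -3.90, -3.95 and -1.09). *Yp1*, a yolk protein gene, had 38.7, 26.7 and 31.4 CPM in *bmm* overexpression males, against 1059, 236 and 127 CPM in control males (log2 fold change -3.90 ± 0.76, exact-test adjusted p = 2.10e-05). *osk* (*oskar*), a maternal RNA that founds the germ plasm, had 0.471, 0.212 and 0.260 CPM in *bmm* overexpression males, against 16.2, 3.02 and 1.31 CPM in control males (log2 fold change -4.45 ± 1.02, exact-test adjusted p = 1.96e-04). *Vml*, a vitelline membrane gene, had 0.639, 0.212 and 0.325 CPM in *bmm* overexpression males, against 19.9, 4.99 and 1.88 CPM in control males (log2 fold change -4.52 ± 0.94, exact-test adjusted p = 5.30e-05). *Yp1* and *Vml* are among the 26 genes from which the female RNA share was read, so they follow its order by construction. In *osk*, which is not, control replicate 1 was also the highest library and control replicate 3 the lowest control. The other largest falls, *CG31926*, *CG5568* and *CG13083*, the last of which is also among the 26, followed the same order over the controls, at 4.28, 1.01 and 0.390 CPM in *CG31926*. By the quasi-likelihood test 13 of the 123 passed, without *bmm* overexpression replicate 3 there were 71, without *bmm* overexpression replicate 2 76, and without control replicate 3 213. Subtracting the estimated female RNA left 26. *tor* was the ovarian germline gene that rose. By the pooled rule it was not female-high, although its mean was 92.3 CPM in control females, against 13.1 CPM in control males. The rule pools the genotypes, so a strong rise in *bmm* overexpression males (to a mean of 177 CPM in *tor*) can keep a gene out of the female-high set.

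**Figure D5:**
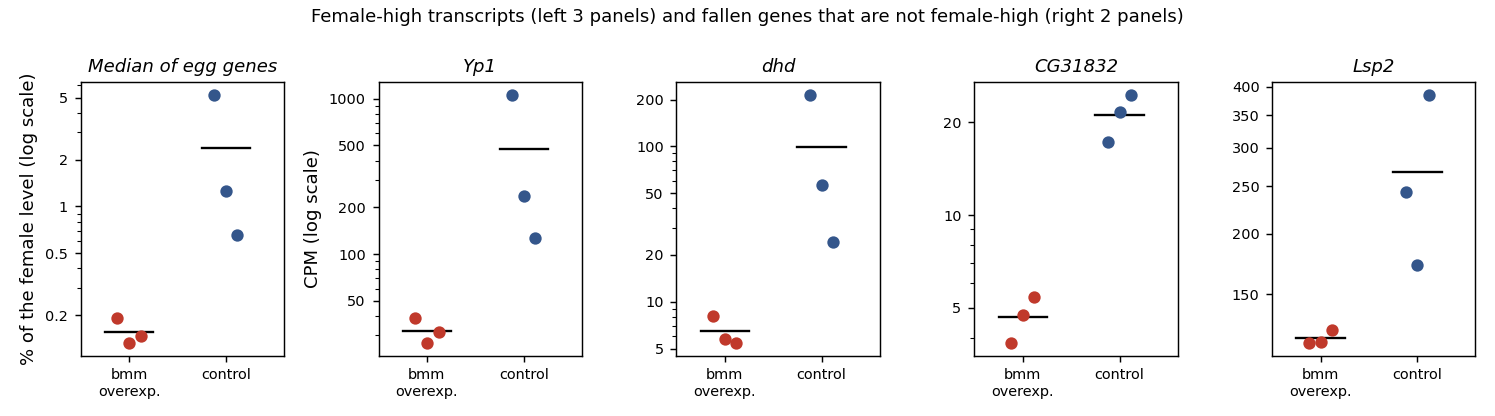
Level in each male library on a log axis, bmm overexpression males left of control males, with the mean as a line: the median egg gene in percent of its level in females, *Yp1* and *dhd* (female-high), and *CG31832* and *Lsp2* (not female-high), in CPM. In the egg genes, in *Yp1*, which is one of them, and in *dhd*, control replicate 1 is the highest library and control replicate 3 the lowest control (5.22% and 0.653% for the egg genes), while in *CG31832* and *Lsp2* control replicate 3 is the highest.

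The same contrast in females came from libraries of its own. Of the 33 genes that rose past both thresholds in males, 22 were tested in females, where 12 rose by the adjusted p and none fell. Of the 48 that fell in males, 29 were tested, 6 fell and 2 rose in females. By the adjusted p alone, of 260 male rises 237 were tested and 114 rose in females, against 2 that fell, while of 175 male falls 143 were tested, 22 fell and 27 rose. The shares of all genes tested in females that rose or fell are not given here. These counts therefore have no background to be set against. In females *Mal-B1* rose by 1.07 on the log2 scale, *CG15254* fell by 2.37 and *CG31832* by 2.56, beside 1.06, -2.64 and -2.19 in males. *bmm* itself rose by 5.14 in females. The response differed between the sexes in 407 of 13988 genes (2.91%) by the quasi-likelihood test of that difference, in *Dgat2*, *CG1941*, *Pepck2*, *Mtpalpha*, *Mal-A1* and *Mal-A2* among them. For *Mal-A1* the log2 fold change was -0.50 in males and 0.73 in females, and for *Dgat2* 1.83 and 0.16.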

How the data were processed

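RNA of whole adult flies was measured in 12 libraries, of which the 6 male libraries were compared here and the 6 female libraries served to mark female-high genes and to test differences between the sexes. Per the labels and the methods of the study, the authors prepared stranded mRNA libraries, aligned the reads to the BDGP6 genome with HISAT2, filtered the alignments with SAMtools and counted reads per gene with featureCounts of Subread. Tool versions and the strand setting of the counting are not given in the sources used here, so reads of a gene and an overlapping antisense gene may not have been told apart, and the filter on mapping quality removes reads shared by near-identical copies. What the authors deposited is a table of whole-number read counts by gene symbol, used for every count model, and a signal by gene (CPM), which is the count over a factor of the library. The factor was extended to all counted genes to give the levels.

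Groups were taken from the sample labels. Counts were filtered with filterByExpr, normalised by TMM and compared by edgeR's exact test (edgeR 4.0.16, R 4.3.3) with Benjamini-Hochberg adjustment over all 13632 tested genes, after the design in the methods of the study. The separate fit of males and TMM were chosen here. Genes were called when the adjusted p was below 0.05 and the log2 fold change beyond 1 in either direction, and within gene lists at the adjusted p alone. Standard errors were back-calculated from the quasi-likelihood fit, as its absolute log2 fold change over the square root of its F statistic. Whether the response differed between the sexes was tested as a genotype by sex term in a quasi-likelihood fit of the 12 libraries. The test scripts were tested on simulated data. With 3 libraries of 20 pooled flies per group, the labels call them biological replicates, and p-values measure the spread between these libraries.

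The genes named were those the study names for its RNA-seq or qPCR, the 12 largest rises and 12 largest falls past both thresholds among genes that were not female-high, had a mean of at least 1 CPM and did not overlap between groups, the 10 most abundant changed genes, the 5 female-high genes with the largest fall, and up to 4 changed members of each list with the smallest p. For the 12 largest rises and 12 largest falls, the absence of overlap between groups was thus set by the rule. Other list members were named where a sentence on the list needed them. The comparison, the lists and the rules were chosen with earlier results of these data known, and symbols of lists were matched through synonyms after list results had first been seen. Alternatives were other normalisations and filters, the quasi-likelihood test, DESeq2 1.42.0, limma-trend (limma 3.58.1) on log2(CPM + 1), a replicate block, a fit over 12 libraries, subtraction of the estimated female RNA, limits of 3 and 20 times for female-high genes, and leaving out each library. Positions came from the BDGP6.54 annotation and were matched for 17735 of 17807 symbols, 716 of them by a synonym. Depth sets a limit of detection of 3 counts per library, which covers counting error only.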

Additional observations from a re-analysis of the deposited data

Results flagged for a closer look

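The response to *bmm* overexpression differed between males and females in 32 of the genes named above, by a genotype by sex term in an edgeR quasi-likelihood fit of the 12 libraries. Over all 13988 genes of that fit, 407 passed (2.91%). Most of the named genes were chosen for their change in males, which is itself part of this difference. The count of 32 can therefore not be set against that share. Each difference below is the male minus the female log2 fold change. For *tor* it was 2.83, for *Dgat2* 1.63, for *CG1941* 1.36 and for *CG34216* 0.95, with female changes of 0.85, 0.16, 0.10 and 1.25. Thus *tor* and *CG34216* also rose in females, by less, while *Dgat2* and *CG1941* did not pass there (exact-test adjusted p = 0.732 and 0.608).

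In metabolism, the difference was 0.91 for *Pepck2*, 0.45 for *Mtpalpha*, 0.45 for *yip2*, 0.44 for *Mtpbeta* and 0.26 for *Mcad*, and in females none of the 5 passed, with log2 fold changes of 0.08, -0.10, 0.08, -0.07 and 0.08. *Cyp6a8* differed by 0.68 and *Arc1* by -1.06. In 5 digestive enzymes the sexes went in opposite directions. The difference was -1.20 for *Mal-A2*, -1.27 for *Mal-A1*, -1.89 for *CG8093*, -2.19 for *Amyrel* and -2.96 for *CG31089*, and the female log2 fold changes were 0.53, 0.73, 1.06, 0.53 and 1.86, all 5 past the exact test in females as rises. *GstD5* differed by -2.35 and *GstD6* by -3.34, and *GstD6* was not tested in females alone because of its low counts there.

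Female-high genes formed the rest. The difference was -3.10 for *Yp3*, -3.47 for *pgc*, -3.58 for *Cp16*, -3.77 for *Cp15*, -3.79 for *Cyp6a19*, -3.83 for *dhd*, -3.86 for *Cp19*, -3.92 for *gnu*, -3.99 for *Yp2*, -4.05 for *Yp1*, -4.07 for *CG15721*, -4.60 for *Vml*, -5.15 for *CG13083* and -5.42 for *CG31926*. The estimated share of female RNA, 0.132% to 0.192% in *bmm* overexpression males, against 0.653% to 5.22% in control males, was read in part from these genes, namely the *Yp* and *Cp* genes, *CG15721*, *Vml* and *CG13083*. By that estimate female RNA came to between 54.4% (*dhd*) and 118% (*Cp16*) of their fall in males. With it subtracted, *dhd* (-4.04), *gnu* (-4.10), *Cp19* (-4.23), *Cyp6a19* (-3.95), *CG15721* (-3.73), *Yp1* (-3.60) and *pgc* (-2.95, all log2 fold changes in males) still passed the exact test, *Cp15* (-2.23, exact-test adjusted p = 0.669) and *Yp3* (2.24, 0.405) did not, and *Yp2*, *Cp16*, *Vml*, *CG13083* and *CG31926* had too few counts left to be tested. What remained was not examined library by library, and for *Yp1* the estimate had come to 91.2% of the fall.

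Under 15 alternatives (2 normalisations, a replicate block within each sex, and each of the 12 libraries left out, the female ones added after seeing the data), 11 of the 32 passed every time: *tor*, *Dgat2*, *CG1941*, *CG34216*, *Pepck2*, *Mtpalpha*, *Mal-A2*, *Mal-A1*, *CG8093*, *CG31089* and *CG15721*. The fewest, 13 of 32, passed without *bmm* overexpression female replicate 3 or control female replicate 1 or 2, and the number of all genes past the threshold then fell to 92, 65 and 61. *Mcad* passed under 5 of the 15 alternatives and *Arc1* under 9.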

How the results depend on the processing

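Of the 33 genes that rose past both thresholds and were not female-high, 21 were called by the quasi-likelihood test and 16 by limma-trend. With each library left out in turn, 31 to 49 genes rose, new calls included. The 48 falls became 25 by the quasi-likelihood test, 15 by limma-trend and 27 with a replicate block, and 36 to 65 with a library left out. The 123 female-high falls became 13, 5 and 68 under these 3 settings, 26 with the estimated female RNA subtracted, 29 and 28 with the profile of *bmm* overexpression females or control females subtracted (chosen after seeing the data), and 71 to 213 with a library left out. The 587 genes past the adjusted p alone became 253 by the quasi-likelihood test, 251 by limma-trend, 272 with the replicate block and 310 to 744 with a library left out. On log2(CPM + 1), the scale of limma-trend, changes of low genes come out smaller, so the 2-fold limit was stricter for them there. The cause of these shifts was not tested. Of the 33 rises and 48 falls, the replicate block kept 24 and 26, and DESeq2 28 and 35. With a library left out, 25 to 29 of the 33 rises and 31 to 42 of the 48 falls were kept. The rise of *bmm* kept its direction and its call under all alternatives (4.97 to 5.92 on the log2 scale). *Yp3* turned positive when female RNA was subtracted (2.24, and 0.49 and 4.01 with the profiles of *bmm* overexpression and control females). No other named gene changed direction where it had a value. After the subtraction *CG31926*, *CG13083*, *CG5568*, *Vml*, *osk*, *Yp2* and *Cp16* had none, nor, with the profile of *bmm* overexpression females, *Cp15* and *CG15721*, and *CG31926* and *GstD6* had none at a mean of at least 1 CPM and *IM23* none in DESeq2. No setting moved the median of all genes by more than 0.033. Same-numbered libraries did not deviate together (correlations -0.035, 0.089 and -0.035). No pairing by replicate number was thus seen, though with so few libraries these values cannot exclude it. Of 96 named genes past the adjusted p, 71 kept it without each male library in turn. With 3 libraries per group and a 2-fold limit, changes of low genes, such as those below 1 CPM, rest on few counts.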

Other observations

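Of genes outside the named set, *dy* (*dusky*), which shapes wing hair and cuticle, had 0.975, 1.39 and 1.27 CPM in *bmm* overexpression males, against 0, 0.186 and 0.177 CPM in control males (log2 fold change 3.41 ± 0.59, exact-test adjusted p = 4.74e-11), and *y* (*yellow*), needed for dark cuticle pigment, had 0.202, 0.121 and 0.0975 CPM in *bmm* overexpression males, against 2.45, 1.08 and 0.425 CPM in control males (log2 fold change -3.23 ± 0.72, exact-test adjusted p = 4.75e-04). The groups did not overlap in either gene. Both lie on X, were chosen after their values were seen, and are at low levels. The quasi-likelihood test gave 0.0327 for *dy* and 0.0671 for *y*.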
